A study of Mus musculus with 13 samples.

Results

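Bambi and 9 further genes of bone morphogenetic protein (BMP) signalling were examined for R-loops in N2A cells, out of 37310 genes in the GENCODE vM1 annotation of mouse build mm9. The genes were the receptors Bmpr1a and Bmpr2, the Smads Smad1, Smad5, Smad6 and Smad7, the pseudoreceptor Bambi and the target genes Id1, Id2 and Id3. They were chosen by pathway membership, and a peak was assigned to a gene when it overlapped the annotated gene bounds extended by 1 kb on each side. Of all annotated genes, 13647 had such a peak in at least 1 untreated library, and 9 of the 10 genes were among them.

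N2A is a mouse neuroblastoma line. Cells were transfected with a scramble siRNA (siScramble), with siRNA against DDX1 (siDDX1), a putative RNA helicase, or with siRNA against EXOSC3 (siEXOSC3), a subunit of the RNA exosome, and the methods describe 3 separate plates per condition. DNA of RNA-DNA hybrids was pulled down with the S9.6 antibody and sequenced (DRIP-seq) in 3 libraries per group, and 1 library per group was digested with RNase H, which degrades the RNA of such hybrids, before the pull-down. Each library has its own list of peaks called against an input, and the comparisons ask whether R-loops over these genes differ upon depletion of either protein. All cells carried a transfected siRNA, so no group stands for untransfected cells. Titles and peak names disagreed on the treatment in 12 of 12 lists. Lists titled siScramble carry siDDX1 in their peak names, those titled siDDX1 carry siEXOSC3, and those titled siEXOSC3 carry siScramble. Groups below follow the titles, so every direction between groups depends on that choice, whereas the test across all 3 groups and the RNase H test do not.

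BMP ligands bring together type I and type II receptors at the cell surface, and the activated type I receptor phosphorylates the receptor-regulated Smads, which enter the nucleus and regulate transcription. The Id genes, which encode inhibitors of basic helix-loop-helix transcription factors and hold back neuronal differentiation, are direct targets. The pathway also induces its own inhibitors, the inhibitory Smads and Bambi, a membrane protein that resembles a type I receptor without the kinase domain.

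The untreated lists held from 23882 to 42571 peaks and the RNase H lists from 3811 to 8034. From the fold enrichment and the p-value of each peak, the whole number of fragments stacked at its summit was recovered for 99.5 to 99.97% of the peaks of a list, within 0.005 on the −log10 p scale. Where the local background stood at its floor, a peak needed a summit of at least 5 to 7 fragments in the untreated libraries and 8 to 9 in the RNase H libraries. The library siScramble replicate 1 needed 6, siDDX1 replicate 1 needed 7 and every other untreated library needed 5. Of the neural markers, Tubb3 and Hand2 were called in 9 of 9 untreated libraries and Gap43 in 8, whereas Nefl, Nefm and Stmn2 were called in none. Of 12 markers of other lineages, 11 were called in no untreated library, and Gfap was called in 4. A peak shows a hybrid and not a level of RNA, so this sets the label only beside the hybrids of its markers.

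The DNA had been cut with 5 restriction enzymes before the pull-down, and the peaks of these genes often ended exactly on a cut. Of the 202 peaks over these genes in the untreated libraries, 119 had at least 1 edge on the end of a restriction fragment and 22 had both. The sites that bounded the peaks of Id1, Smad1, Id3 and Smad5 are shown because they set the resolution of those peaks. Each line gives the plus strand of mm9 with the recognition site in capitals. The Id1 sites lay at chr2:152561981-152562010 and chr2:152563029-152563058, those of Smad1 at chr8:81920235-81920264 and chr8:81924506-81924535, those of Id3 at chr4:135700282-135700311 and chr4:135702702-135702731, and those of Smad5 at chr13:56804044-56804073 and chr13:56806055-56806084.
Id1 BsrGI: ctgccctctcatTGTACAacctttcttcaa
Id1 SspI: gatttctgaggaAATATTttgtattgtata
Smad1 XbaI: tagattctagaaTCTAGAattttctgggag
Smad1 SspI: attatacataagAATATTcctgctaattaa
Id3 HindIII, near the start: gcacctcccggtAAGCTTtctcctggcgcg
Id3 HindIII, downstream: aggagggattgaAAGCTTtagtggagcaag
Smad5 SspI: ccctttgggagcAATATTaaggctacatct
Smad5 BsrGI: ctatataaggttTGTACAtattaagcttag

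The sequence under the strongest summit is shown for Id1, which had the highest enrichment of the 10 genes, for Smad1 and Id3, which differ in their runs of G, and for Smad6, the gene with the lowest p across the groups. Each of these summits came from siEXOSC3 replicate 3, and that of Smad6 lay in a region called in no other library. Runs of at least 3 G are in capitals. Each sequence is given on the strand of the gene, up to 100 bases to either side of the summit and without untranslated bases. They lie at chr2:152562077-152562242 (plus strand, coding exon of Id1), chr8:81920290-81920490 (minus strand, intron of Smad1), chr4:135700292-135700397 (plus strand, an exon of Id3) and chr9:63816597-63816797 (minus strand, intron of Smad6).
Id1: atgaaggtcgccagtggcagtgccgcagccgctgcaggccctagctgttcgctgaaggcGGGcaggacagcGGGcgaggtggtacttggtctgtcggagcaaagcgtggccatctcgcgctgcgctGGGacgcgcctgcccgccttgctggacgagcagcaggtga
Smad1: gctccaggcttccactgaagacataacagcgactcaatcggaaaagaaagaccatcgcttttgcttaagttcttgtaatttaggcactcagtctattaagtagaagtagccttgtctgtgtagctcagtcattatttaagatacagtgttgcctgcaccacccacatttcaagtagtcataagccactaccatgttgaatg
Id3: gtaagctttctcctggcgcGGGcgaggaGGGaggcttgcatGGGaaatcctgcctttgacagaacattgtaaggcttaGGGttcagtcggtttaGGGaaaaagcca
Smad6: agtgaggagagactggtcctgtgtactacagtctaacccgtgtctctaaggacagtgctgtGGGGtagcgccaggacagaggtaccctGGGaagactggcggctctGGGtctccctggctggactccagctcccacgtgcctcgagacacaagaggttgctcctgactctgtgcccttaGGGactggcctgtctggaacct
There were 3 runs of at least 3 G in the Id1 sequence, 0 in that of Smad1, 5 in that of Id3 and 4 in that of Smad6. Of windows reaching 100 bases to either side of the starts of all protein-coding genes, 94.4% held at least 1 such run and 66.9% held at least 3. The Id1 and Id3 sequences were shorter than these windows, and those of Smad1 and Smad6 lay in introns downstream of the start. The shares are therefore no matched background for these counts. Runs of G on the displaced strand are a known feature of many R-loops, and the strongest Smad1 summit carried none in this window. A summit near a cut can lie anywhere on the fragment that was pulled down, so these letters need not mark the hybrid itself.

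The values of the 10 genes are given below as covered bases, the number of bases of the extended gene that lie inside peaks of a library.

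**Figure D1:**
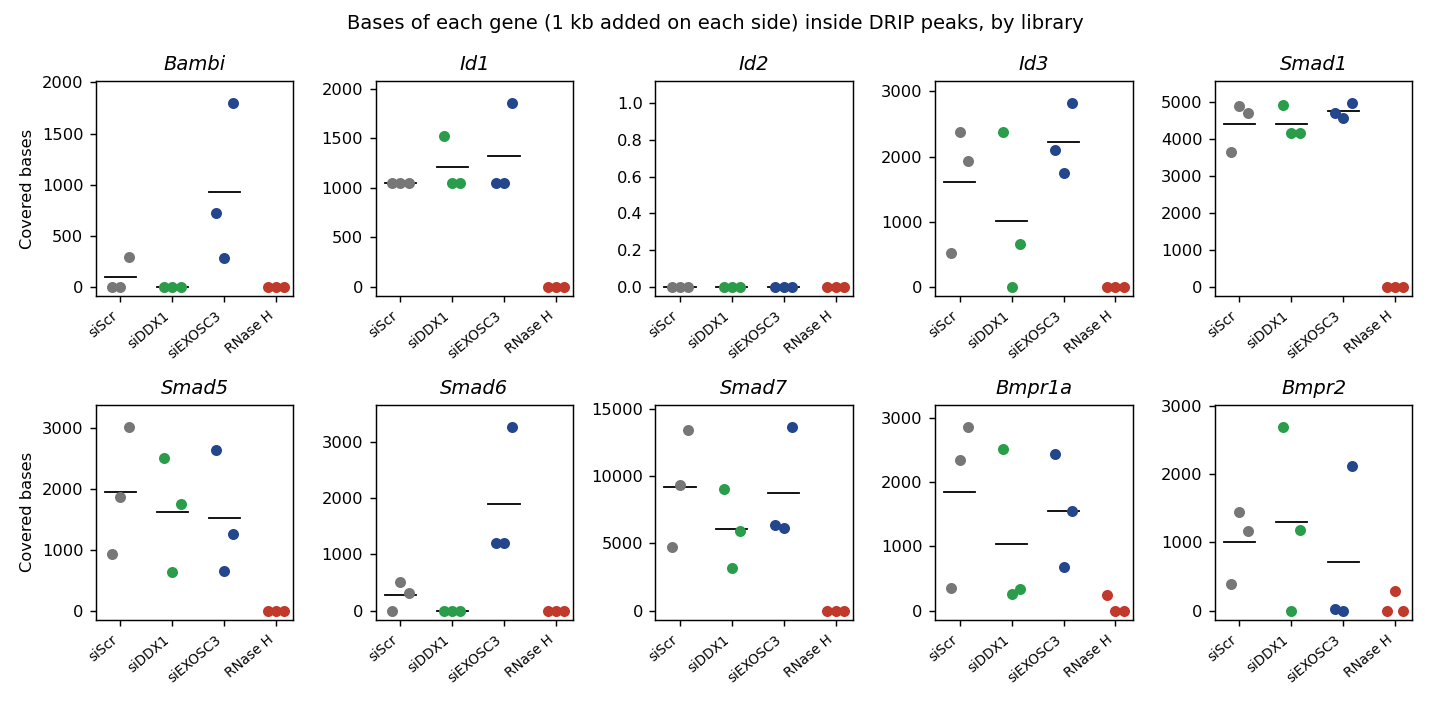
Covered bases of each gene (vertical axes, a scale of its own for each gene) in the 9 untreated libraries, coloured by group with a line at the mean of 3, and in the 3 RNase H libraries (siScramble, siDDX1 and siEXOSC3 from left to right). Bambi and Smad6 sit at 0 in all 3 siDDX1 libraries and above 0 in all 3 siEXOSC3 libraries, Id2 sits at 0 throughout, and the RNase H libraries are at 0 except 1 for Bmpr1a and 1 for Bmpr2.

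At the receptors, peaks were present in most libraries, and their extent varied as much within as between groups. Bmpr1a, a type I receptor of BMP ligands, had 346, 2341 and 2857 covered bases in siScramble, 2515, 260 and 343 in siDDX1, and 2427, 685 and 1543 in siEXOSC3, in the order of the replicates. The means were 1848 ± 1326, 1039 ± 1279 and 1552 ± 871 bases (SD, n = 3), and the groups overlapped (exact permutation p = 0.6286 over the 3 groups). Its main region lay near the start, from 304 to 2562 bases downstream of the start, and was called in 7 of 9 untreated libraries. The strongest siDDX1 peaks of replicates 2 and 3 lay elsewhere, 71483 and 70211 bases downstream of the start, with 6 fragments each. Bmpr2, the type II receptor, had 394, 1441 and 1159 covered bases in siScramble, 2690, 0 and 1179 in siDDX1, and 30, 0 and 2121 in siEXOSC3. It was called in 7 of 9 libraries and its groups overlapped as well (exact permutation p = 0.8). A region that ended 365 bases downstream of its start was called in 6 libraries, and another, from 102808 to 104334 bases downstream, in 5.

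The receptor-regulated Smads Smad1 and Smad5 were called in every untreated library. Smad9, a further receptor-regulated Smad outside the genes chosen, was called in 5 of 9. These were 0 siScramble, 2 siDDX1 and 3 siEXOSC3 libraries. Smad1, which carries the signal of the type I receptors into the nucleus, had 3644, 4893 and 4704 covered bases in siScramble, 4908, 4170 and 4170 in siDDX1, and 4703, 4578 and 4969 in siEXOSC3. The means were 4414 ± 673.2, 4416 ± 426.1 and 4750 ± 199.7 bases (SD, n = 3), a spread smaller than that of the other Smads in proportion to the mean. In 8 of 9 libraries 1 peak filled the whole XbaI to SspI fragment of 4273 bases around the start of Smad1, and in siScramble replicate 1 the same fragment held 2 peaks. The groups overlapped in covered bases (exact permutation p = 0.6464), a measure that does not register a change of signal inside a filled fragment. The fold enrichment of the strongest Smad1 peak averaged 11.7 ± 1.51 for siScramble, 11.5 ± 1.94 for siDDX1 and 16.1 ± 1.7 for siEXOSC3 (SD, n = 3). Each siEXOSC3 library, from 14.3 to 17.6, stood above the other 6. The share of all genes with siEXOSC3 above the other 6 in fold was not computed. By the highest fold, 10.1% of pairs of groups over all genes did not overlap. The same test on the highest fold, chosen after the data had been seen, gave an exact permutation p = 0.04643 at a level that 5.56% of all genes tested passed.

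Smad5 was the other receptor-regulated Smad among the genes chosen. It had 936, 1865 and 3015 covered bases in siScramble, 2496, 635 and 1741 in siDDX1, and 2641, 652 and 1248 in siEXOSC3. The groups overlapped (exact permutation p = 0.8429). Its region at the start was called in 9 of 9 libraries and began at the SspI cut 312 bases upstream of the start in 7 of them. In 5 libraries a peak ended at the BsrGI cut 1700 bases downstream. The fragment between these cuts is 2013 bases long, and 4 libraries had a peak at either end of it with a gap between them. A second region in the gene body, from 27962 to 28948 bases downstream, was called in 5 libraries.

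The plots of the starts show these shared edges.

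**Figure D2:**
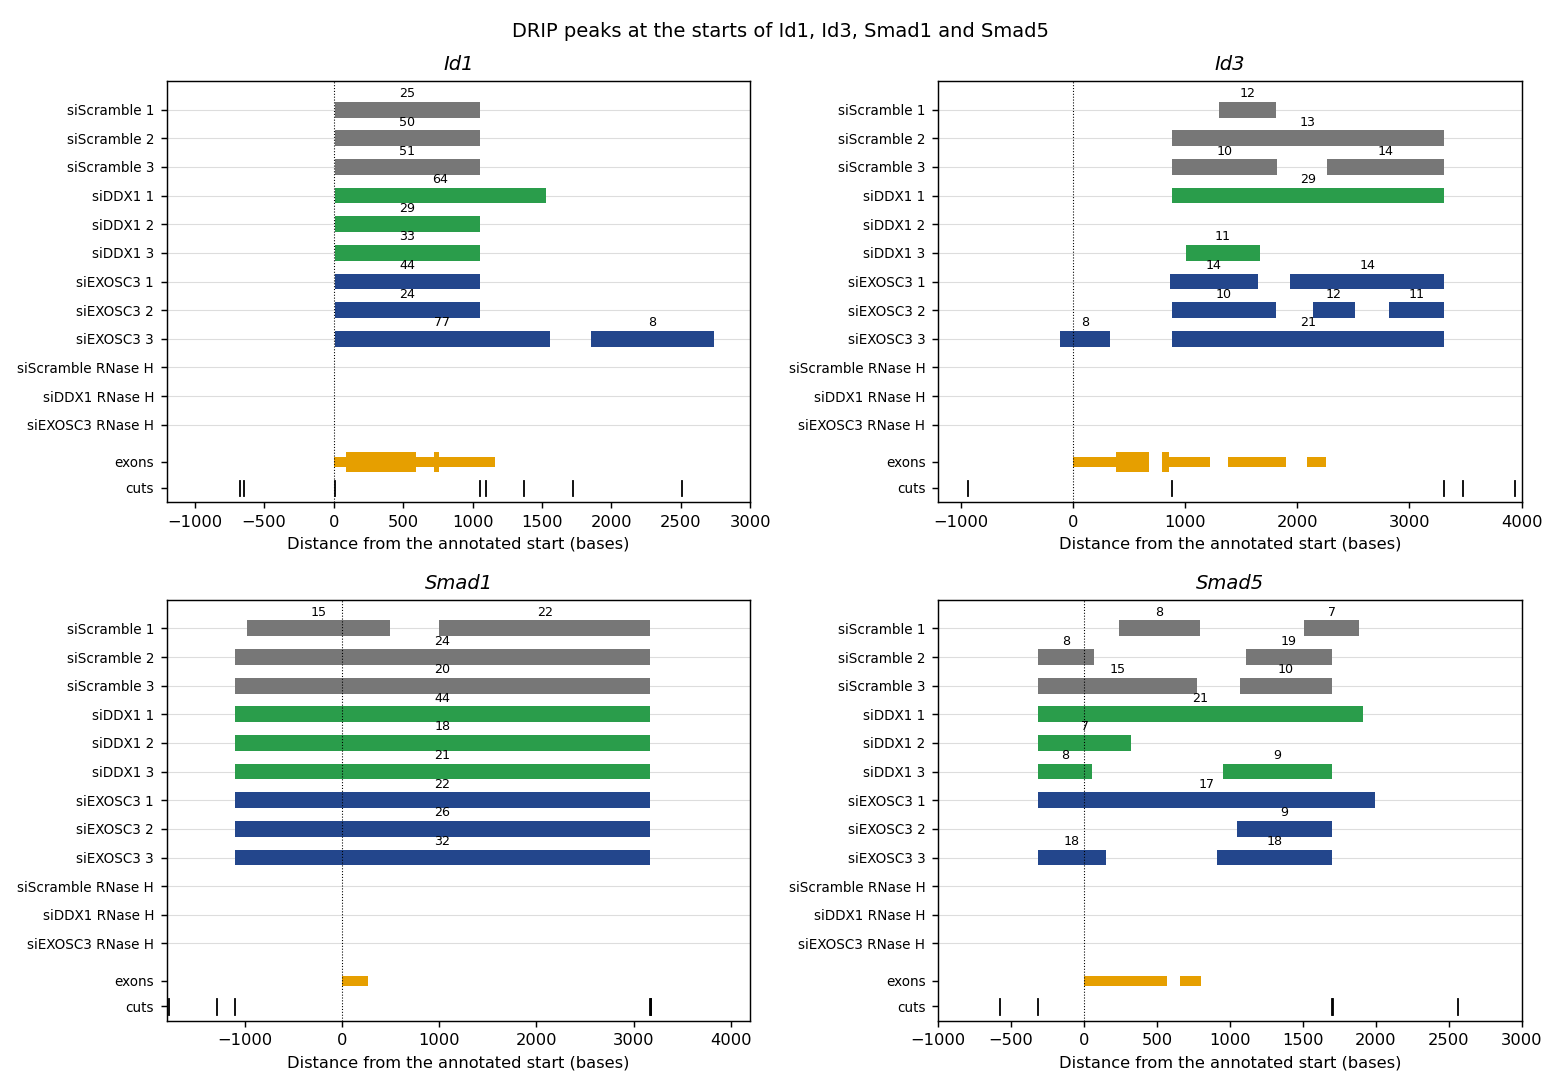
DRIP peaks near the starts of Id1, Id3, Smad1 and Smad5, with distance from the annotated start in bases on the horizontal axis and 1 row per library (bars are peaks and the number above a bar is the fragments stacked at its summit). Orange bars mark exons, taller where coding, and ticks mark restriction cuts. The Smad1 bars end on the same cuts in 8 of 9 untreated libraries, the Id1 bars begin on the same cut in 9 of 9, and no RNase H library has a bar.

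The inhibitory Smads differed in extent. Smad7, which blocks the type I receptor and is induced by BMP and TGF-beta signals, had the most covered bases of the 10 genes, with 4739, 9337 and 13450 in siScramble, 9037, 3149 and 5930 in siDDX1, and 6357, 6182 and 13689 in siEXOSC3. Peaks covered 26.26% of the extended gene on average, in 13 regions with 85 peaks. Regions from 8980 to 13897 bases and from 26041 to 29342 bases downstream of its start were called in 9 of 9 libraries, and the region at its start in 8. The groups overlapped (exact permutation p = 0.5643).

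Smad6, the inhibitory Smad that acts chiefly on BMP signals, had 0, 505 and 316 covered bases in siScramble, 0, 0 and 0 in siDDX1, and 1204, 1208 and 3263 in siEXOSC3. The means were 273.7 ± 255.1, 0 and 1892 ± 1188 bases (SD, n = 3). All 3 siEXOSC3 libraries stood above the other 6, and the exact permutation test across the 3 groups gave p = 0.01429. Smad6 was the only 1 of the 10 genes with an unadjusted p under 0.05, as were 394 of all genes tested, or 2.89%. Its adjusted p was 1 (Benjamini-Hochberg over 13647 genes), and 0 genes passed after adjustment. The Smad6 peaks lay mostly in an intron far from the start. A region from 50204 to 52350 bases downstream was called in 3 of 3 siEXOSC3 libraries and in no other. Another, from 53813 to 54156 bases, was called in 2 siEXOSC3 libraries and 1 siScramble library. Both were merged from these same peaks, and the share of regions over all genes with such calls was not computed. The 12 peaks had summits of 5 to 12 fragments, close to the lowest that could be called, and siEXOSC3 replicate 3, the longest list, held 6 of them. When only peaks with a −log10 q of at least 5 were kept, or when only 2 kb to either side of the start were read, the exact permutation p of Smad6 was 1.

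Bambi gave a similar set of calls nearer to its start. It had 0, 0 and 297 covered bases in siScramble, 0, 0 and 0 in siDDX1, and 721, 280 and 1798 in siEXOSC3. The means were 99 ± 171.5, 0 and 933 ± 780.9 bases (SD, n = 3). The siEXOSC3 libraries lay above every siDDX1 library, but the siScramble and siEXOSC3 values overlapped, since siScramble replicate 3 exceeded siEXOSC3 replicate 2. The exact permutation test across the 3 groups gave p = 0.07143 (adjusted p = 1). The smallest p the design allows is 0.003571, but only where values do not tie. As 5 of the 9 Bambi values were 0, Bambi could not reach that limit. Calls in 3 siEXOSC3, 1 siScramble and 0 siDDX1 libraries were found at 36 genes, 0.264% of those tested. That pattern was read from the Bambi calls themselves, so its share does not measure how unusual Bambi is. With peaks read only within 2 kb of the start, the exact permutation p of Bambi was 0.03571, at a level that 3.49% of all genes passed, and with only peaks of a −log10 q of at least 5 it was 0.25.

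There were 7 Bambi peaks in 3 regions, and 6 of their summits lay in the first intron. The siScramble replicate 3 peak had its summit 2643 bases downstream of the start, with 7 fragments and a fold enrichment of 4.82. The library siEXOSC3 replicate 1 had summits at 751 bases, with 6 fragments and a fold of 4.35, and at 1552 bases, with 7 fragments and a fold of 4.97. The library siEXOSC3 replicate 2 had a single summit at 1513 bases, with 10 fragments and a fold of 6.73. These replicates shared a peak that began at the same HindIII cut. The library siEXOSC3 replicate 3 had summits at 1371 bases, with 12 fragments and a fold of 8.36, and at 2829 bases, with 8 fragments and a fold of 5.79, and a further one with 9 fragments and a fold of 4.62 at the XbaI cut just upstream of the start. The region from 437 to 1659 bases downstream of the start was thus called in 3 of 3 siEXOSC3 libraries and in none of the other 6. The 2 remaining regions were called in 1 and 2 libraries. Regions were merged from these same peaks, and the share of regions over all genes with such calls was not computed. The enrichments of the 7 peaks ranked between the 15.65 and 73.61 percentile of the peaks of their own lists.

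**Figure D3:**
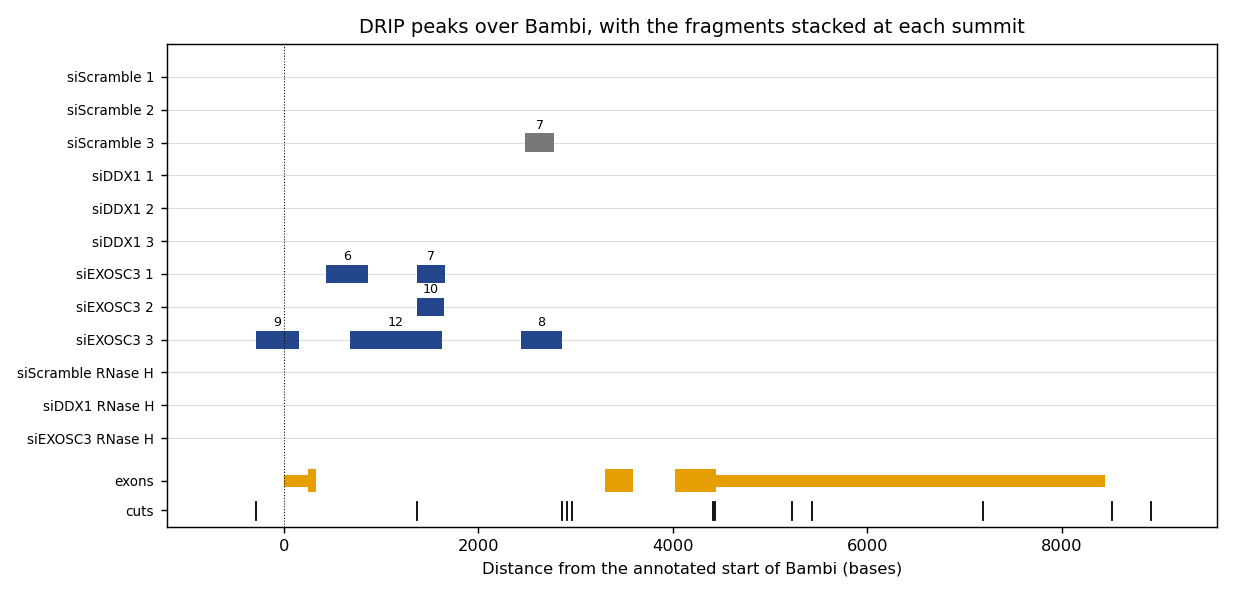
DRIP peaks over Bambi, with distance from the annotated start in bases on the horizontal axis and 1 row per library (bars are peaks, and the number above a bar is the fragments stacked at its summit). Orange bars mark exons, taller where coding, and ticks mark restriction cuts. All 7 bars lie between the start and the second exon or just upstream, 6 of them in siEXOSC3 libraries and 1 in siScramble replicate 3, with summits of 6 to 12 fragments.

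The 3 protein-coding genes whose covered bases followed those of Bambi most closely over the 9 untreated libraries were AB124611 (Pearson r = 0.9934), Pcbd1 (r = 0.9789) and B230317F23Rik (r = 0.9777), the highest of 11094 genes ranked. Pcbd1 had 0 covered bases in every siScramble and siDDX1 library and 274, 0 and 739 in siEXOSC3. AB124611 had 94 bases in siScramble replicate 3 and 463, 73 and 1133 in siEXOSC3. The library siEXOSC3 replicate 3, with the longest list of peaks, is the highest point for each of the 3 genes. All values of a library share its depth, and whether depth bears on these correlations was not tested.

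The Id genes, targets of the pathway, ranged from the strongest enrichment to none. Id1 had a peak in 9 of 9 untreated libraries. It covered 1050 bases in each siScramble library, 1522, 1050 and 1050 in siDDX1, and 1050, 1050 and 1857 in siEXOSC3. The repeated value is a whole BsrGI to SspI fragment, which begins 7 bases downstream of the start of Id1 and holds its coding exons. The BsrGI edge was shared by 9 libraries and the SspI edge by 7. The upstream neighbour, an EcoRI to BsrGI fragment of 660 bases that holds the annotated start, had no peak in any of the 12 libraries. The fold enrichment of the strongest Id1 peak was 15.2, 31.6 and 31.3 in siScramble, 28.4, 18.4 and 22 in siDDX1, and 28, 15.3 and 50.2 in siEXOSC3, with 24 to 77 fragments at the summit. These ranks ran from the 96.8 to the 99.72 percentile of each list. The means were 26.1 ± 9.37, 22.9 ± 5.02 and 31.1 ± 17.7 (SD, n = 3), and the groups overlapped in fold as in covered bases (exact permutation p = 1 for covered bases). Most libraries held the same 1050 covered bases, so the test on covered bases could not have given a p under 0.05. The same test on the highest fold, added after the data had been seen, gave an exact permutation p = 0.8036.

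Id3 had 513, 2376 and 1926 covered bases in siScramble, 2376, 0 and 658 in siDDX1, and 2100, 1744 and 2821 in siEXOSC3, and was called in 8 of 9 libraries. The groups overlapped (exact permutation p = 0.4107). Its main region ran from 867 to 3306 bases downstream of the start, over the end of the gene, and 3 libraries had a peak that filled a HindIII to HindIII fragment there. A peak at the start itself was called in siEXOSC3 replicate 3 only, with 8 fragments. Id2 had 0 covered bases in all 12 libraries, as had 60.1% of all annotated genes. The nearest peak lay between 1091 and 33832 bases from the annotated Id2 gene over the 9 untreated libraries. The smaller distance is just beyond the 1 kb extension. No hybrid was thus called within the extended Id2 gene at this depth. A summit under 5 to 7 fragments could not have been called.

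Id1 and Smad1 had the highest summits, and the median summit of Bambi, Smad5, Smad6, Smad7, Bmpr1a and Bmpr2 was 7.5 to 9 fragments.

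**Figure D4:**
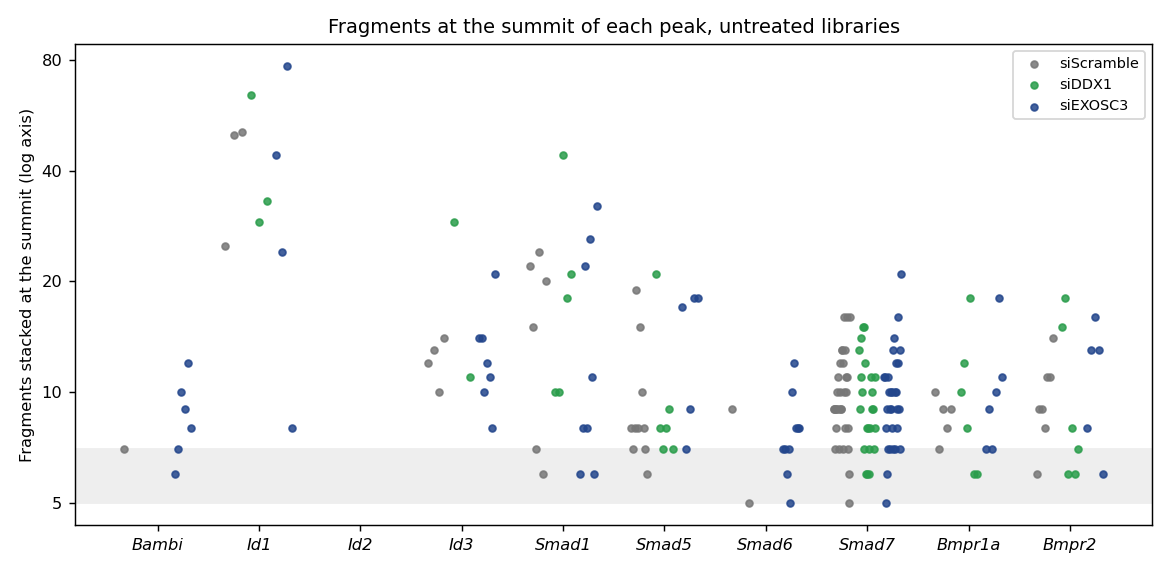
Fragments stacked at the summit of each peak (vertical log axis) in the 9 untreated libraries, by gene and coloured by group, with the grey band at the 5 to 7 fragments that the lists required at the background floor. Id1 reaches 77 fragments and Smad1 44, whereas the 7 peaks of Bambi and the 12 of Smad6 stay at 12 or below, and Id2 has none.

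The pairs of groups gave few differences, and with 3 libraries against 3 the smallest possible exact p is 0.1. Between siEXOSC3 and siScramble, Smad6 was the gene whose groups did not overlap, higher in siEXOSC3 as were 6.29% of all genes covered in either group, and 3.75% were lower. Between siEXOSC3 and siDDX1, Bambi and Smad6 did not overlap, both higher in siEXOSC3, where 5.06% of genes were higher and 2.5% lower (exact permutation p = 0.1 for each). Between siDDX1 and siScramble, 0 of the 10 genes were separated, against 0.901% of genes that were higher and 2.01% that were lower in siDDX1. Both knockdowns were compared with the same siScramble libraries. If the peak names rather than the titles are right, the libraries called siEXOSC3 here are scramble libraries, and those called siDDX1 are siEXOSC3 libraries.

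The RNase H libraries held no peak at most of these genes. Bambi, Id1, Id3, Smad1, Smad5, Smad6 and Smad7 had 0 covered bases in 3 of 3 RNase H libraries. Bmpr1a had 241 bases in the siScramble RNase H library and Bmpr2 had 292 in that of siDDX1. Both of these peaks lay deep in the gene, 81810 and 96587 bases downstream of the start. Of genes called in any library, 23.6% were called in at least 1 RNase H library.

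When the digested library was exchanged with the untreated ones of its own group, Id1 and Smad1 had fewer covered bases after digestion (exact permutation p = 0.01562, adjusted p = 0.04088). At an adjusted p under 0.05, 36.2% of all genes tested were lower after digestion and 1.98% were higher. Smad5 and Smad7 had a p of 0.03125 in the same exact test, and Id3 one of 0.04688, with adjusted p of 0.07132, 0.07132 and 0.09785. For Bmpr1a the exact p was 0.0625, for Bmpr2 0.1719, for Smad6 0.375 and for Bambi 0.4375. The smallest p this test can give is 0.015625, where no values tie. At Bambi and Smad6 every siDDX1 library, digested or not, was at 0. Exchanging equal values changes nothing, so neither gene could reach a p under 0.05 in this test. An RNase H library needed 8 to 9 fragments at a summit, and 4 of the 7 Bambi summits held 8 or more. The other 3 could not have been called there with the same number of fragments. The background floor was higher in the RNase H libraries than in those with Bambi peaks, so equal fragments do not mean equal enrichment. Whether these 3 could have been called at the same fold enrichment was not tested. How far the fragment threshold bears on the RNase H values of Bambi and Smad6 was not tested either. When 1 untreated library was left out, the smallest exact p was 0.02083, and 0 of the 10 genes passed after adjustment, except without siScramble replicate 1, where 3 passed. The share of all genes that passed with a library left out was not computed.

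Of the 10 genes, 5 were called in 9 of 9 untreated libraries (Id1, Smad1, Smad5, Smad7 and Bmpr1a), as were 49.6% of the genes with a peak in any untreated library and 26.2% of all protein-coding genes. A further 4 were called in some libraries and 1 in none. In a wider list of 61 BMP pathway genes, 13 were called in 9 of 9 libraries, 18 in some and 30 in none, where 50.1% of all protein-coding genes were called in none. Of the 13 genes, 8 were among the 11 other Smads and Smad partners, none of which was without a peak, whereas 13 of 16 genes of BMP ligands and 8 of 13 of extracellular antagonists and modulators had no peak in any untreated library.

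**Figure D5:**
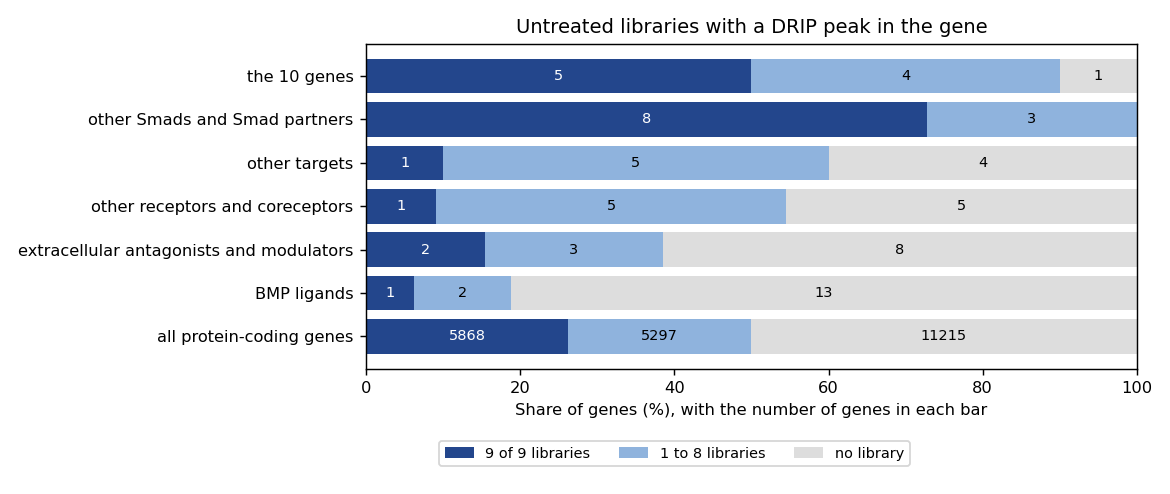
Share of genes (horizontal axis, percent, with the number of genes in each bar) with a DRIP peak in 9 of 9, in 1 to 8 or in no untreated library, for the 10 genes, 5 further groups of BMP pathway genes and all protein-coding genes. The other Smads and their partners have the longest dark bar, 8 of 11 genes, and the BMP ligands the longest grey bar, 13 of 16.

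The wider genes with the most covered bases were Ski, a corepressor that binds Smads, with 13610 ± 4125 bases (SD, n = 9), Ppm1a, a phosphatase, with 7389 ± 1501, the transcription factor Gata2 with 7276 ± 2435, the coreceptor Neo1 with 6997 ± 4208, and Smurf1, a ubiquitin ligase, with 6279 ± 1577. Each was called in 9 of 9 libraries, and Ski and Smurf1 were also called in 3 of 3 RNase H libraries. Of the 61 genes, 1 had an unadjusted p under 0.05 across the groups. This was Bmp1, a secreted protease listed with the ligands for its name, with 0, 309 and 388 covered bases in siScramble, 0 in each siDDX1 library, and 470, 1770 and 3034 in siEXOSC3 (exact permutation p = 0.01429, adjusted p = 1). Its siEXOSC3 libraries were above the other 6, as were those of 2% of all genes tested. After RNase H digestion, 10 of the 61 genes were lower and 1 was higher at an adjusted p under 0.05, of 35 that had a peak in any library and could be tested, beside 36.2% lower and 1.98% higher over all genes tested.

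The base composition of the 1000 bases downstream of the start was compared with that of all protein-coding genes. The GC content was 74.8% for Bmpr1a, 71.2% for Smad1, 70% for Smad5, 61.1% for Smad6, 58.8% for Id1 and Id3, 58.4% for Bambi and 57.4% for Smad7, all above the median of 53.4% over all protein-coding genes. Id2, the gene with no peak, had 50.8%, and Bmpr2 had 43%, both below that median. GC skew, the excess of G over C on the strand of the gene, is a known feature of promoters that form R-loops. It was 0.12 for Bambi, at the 81.2 percentile of all protein-coding genes, and −0.017 for Id1, at the 28.9 percentile, although Id1 had the highest enrichment of the 10. Smad1 had 44 runs of at least 3 G in these bases, at the 98.9 percentile, and Id2 had 8, at the 10.9 percentile. These are descriptions of 10 genes chosen for their pathway.

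The genes targeted by the siRNAs were read in the same way, although an siRNA acts on the RNA and a peak is no check of a knockdown. Ddx1 had 1925, 4062 and 4373 covered bases in siScramble, 5033, 2013 and 2603 in siDDX1, and 2344, 2746 and 3093 in siEXOSC3 (exact permutation p = 0.7286). Exosc3 was called in 4 of 9 libraries, with at most 810 bases (exact permutation p = 0.6786). Neither gene separated the groups. Because a peak is no check of a knockdown, these values could not have decided between the titles and the peak names.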

How the data were processed

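DRIP-seq peak lists of 12 N2A libraries were analysed, and the 1 input sample was not analysed here. According to the study's methods and the submitters' processing notes, reads were aligned to mm9 with Bowtie2 2.4.4, handled with SAMtools, and peaks were called per library against the input with MACS2 2.2.6. HOMER 4.11 and DESeq2 are named too, but the lists hold no read counts, so the latter test could not be repeated. For each peak, the deposited lists give bounds and summit, the fold enrichment as a linear ratio, the p-value and the q-value on a −log10 scale, all made by the authors. No peak had a −log10 q below 2, and the display score stayed unused.

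The covered bases of each GENCODE vM1 gene, extended by 1 kb, were computed per library with pandas 2.3.3, numpy 2.4.6, pysam 0.24.0, scipy 1.17.1 and matplotlib 3.10.9 (Python 3.11.15). Groups were compared by two-sided exact permutation of the F statistic over 280 splits of 9 libraries, pairs of groups over 20 assignments, and RNase H over 64 assignments within groups, each for every gene with a peak and adjusted by the Benjamini-Hochberg method (13647 genes across groups, 14869 for RNase H). p-values measure the spread between plates of 1 cell line, part of which may be technical. Fragments at the summit n were solved from fold = (n + 1)/(background + 1) together with the Poisson p-value. This gives the depth behind a peak, and sequenced fragments without molecular identifiers need not be independent molecules. Edges were matched to cuts in NCBIM37, the same build as mm9, after fill-in of the overhangs. The code was tested on simulated data.

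The 10 genes, the wider lists and the tests were chosen with earlier results of these data known. All 10 genes are named. Not every cell type marker examined is reported here. Of the wider list, the 5 with the most covered bases, any with an unadjusted p under 0.05 and Smad9 are named. The 3 genes most like Bambi and both siRNA targets are named too. Alternatives covered the gene window, the peak threshold, equal list sizes, the overlap rule, summits, left-out libraries and a replicate block. The highest fold, and the alternatives for the pairs of groups, were added after the data had been seen.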

Additional observations from a re-analysis of the deposited data

How the results depend on the processing

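Under the alternatives, 57 of 82 values of the main results kept their side of the threshold or stayed within 1.5 times, as did 130 of 136 for single genes, and 25 and 6 did not. For Bambi, the exact permutation p of 0.07143 became 0.03571 within 2 kb of the start, with equal numbers of peaks per library (23882) and with the highest fold, was 0.25 with only peaks of a −log10 q of 5 or more, and ran from 0.03571 (without siEXOSC3 replicate 2) to 0.1071 with 1 library left out. The number of the 10 genes with an unadjusted exact p under 0.05 went from 1 to 3 with equal numbers of peaks and to 3 with the highest fold (Bambi, Smad1 and Smad6 in both), where 5.32% and 5.56% of all genes passed, and from 1 to 2 with 1 library left out. No gene of the 10 passed after adjustment in any of these. Under RNase H, the number went from 2 to 4 with equal numbers of peaks, to 5 with the highest fold, to 0 with peak summits, and to between 0 and 3 with 1 library left out. The number called in 9 of 9 libraries went from 5 to 3 within 2 kb of the start and to 3 with the −log10 q threshold of 5, and to between 5 and 6 with 1 library left out. For the RNase H counts and the 9 of 9 counts, the share of all genes under each alternative was not computed. Nothing is therefore read from their changes. The number of separated pairs of groups went from 3 to 6 with equal numbers of peaks, to 5 with the highest fold, and to between 3 and 8 with 1 library left out. Over all genes, the share of separated pairs went from 6.87% to 10.2% and 10.1%, and to 20.7% without siDDX1 replicate 1, which gave the 8, and 19.6% without siScramble replicate 1, which gave 5, so nothing is read from these rises. The causes were not tested. Deviations of same-numbered libraries correlated with mixed signs (from −0.8125 to 0.8356, and not every pair above 0.1), so the numbers were not taken to pair the samples. With a replicate block, the exact p was 0.1111 for Bambi and 0.05556 for Smad6, and 0 of the 10 genes passed. For Smad1, the same q threshold and equal numbers of peaks gave an exact p of 0.03571. Depth limits what can be called to summits of 5 to 7 fragments, and siDDX1 replicate 1 needed the most.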
